A study of Chlorocebus sabaeus with 45 samples.

Results

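Platelet granule genes were followed in whole blood of 15 wild-born juvenile male vervet monkeys (*Chlorocebus sabaeus*) from St. Kitts during relocation and quarantine. The set was chosen by symbol and named 9 genes that encode cargo or membrane proteins of the platelet α-granule: PF4, PPBP, THBS1, SPARC, CLU, MMRN1, F13A1, SELP and TREML1. Of these, 8 had a row among the 33994 listed genes, and all 8 were among the 18753 genes tested. PF4, a major α-granule chemokine, had no row under that symbol and is not described. Each animal gave blood on day 0 (Tp1), day 3 (Tp2) and day 14 (Tp4), so there were 45 libraries of stranded total RNA from which ribosomal and globin RNA had been removed. On day 0 the animals were trapped in the field from their troops, given ketamine and xylazine, and bled at once. On days 3 and 14 they were in individual housing in a research facility and were given dexmedetomidine and midazolam, reversed afterwards with atipamezole and flumazenil. No animal remained untreated in its troop, so sedative, place, housing and elapsed time cannot be told apart in a comparison with day 0. Age was given only as juvenile, and a single animal was taken from each troop.

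Platelets carry no nucleus, and their RNA is passed on by the megakaryocytes that shed them. Their α-granules store chemokines, adhesive glycoproteins and clotting proteins, which are released within seconds of activation, when the granule membrane fuses with the cell surface and exposes its own proteins there. In whole blood RNA these transcripts come mainly from platelets, with further contributions of some genes from monocytes (THBS1, F13A1) and, for SELP, from endothelium. RNA levels in blood show how much of such transcript was present and not whether granules were released, and in whole blood fewer cells of a type and less RNA per cell cannot be told apart.

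Between 13216275 and 31469332 fragments per library fell on genes. Levels are given as scaled FPKM, that is fragments per gene, divided by the length of the gene, the library's total and the library's scaling factor from the trimmed mean of M values (TMM). The blood also changed in its other cell markers: the sum of 10 neutrophil markers lay between 1201 and 40808 scaled FPKM on day 0, between 473 and 6643 on day 3 and between 469 and 4074 on day 14. The day 0 libraries of animals 7, 11 and 15 stood apart, with neutrophil sums of 28408, 37527 and 40808 scaled FPKM against at most 9994 in the other animals, and with the lowest median rank correlation with the libraries of that day (0.937 to 0.946). Their summed granule gene level (1037 to 1249 scaled FPKM) was within the range of the other day 0 libraries. Results without these 3 animals are given where they differ.

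The granule genes differed by orders of magnitude in blood, and their order by level was stable at the top and at the bottom. PPBP, the precursor of the neutrophil-attracting chemokine CXCL7, was the most abundant, with 180.4 scaled FPKM in the lowest, 514 in the median and 3733 in the highest of the 15 day 0 libraries. F13A1, the catalytic A subunit of the fibrin cross-linking factor XIII, came next with 60.9, 146 and 562, and TREML1, a receptor of the α-granule membrane that binds fibrinogen, followed with 4.33, 21.8 and 165. PPBP exceeded F13A1, and F13A1 exceeded TREML1, in 15 of 15 animals on each day. SELP, THBS1, MMRN1 and CLU had median day 0 levels between 7.44 and 14.2 scaled FPKM, and their ranges overlapped. Neighbours among them changed places between animals: SELP exceeded THBS1 in 9 of 15 animals on day 0, and MMRN1 exceeded CLU in 5. SPARC, a collagen-binding matrix glycoprotein, was the lowest gene in 15 of 15 animals on each day, with a day 0 median of 0.125 scaled FPKM.

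The depth behind these values differed accordingly. PPBP rested on 3677 to 67240 fragments per library over its 718 bp, and F13A1 on 4632 to 66313 over 4064 bp. The other genes above SPARC rested on 132 (CLU) to 12252 (THBS1) fragments. SPARC had a median of 8 fragments per library, with 0 in 1 library of day 14 and 86 at most, and passed 0.5 CPM (fragments scaled to the library total) in 3 libraries of day 0, 10 of day 3 and 4 of day 14. Changes in SPARC were therefore barely measurable at this depth, whereas counting error was small beside the spread between animals for the other 7 genes.

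**Figure D1:**
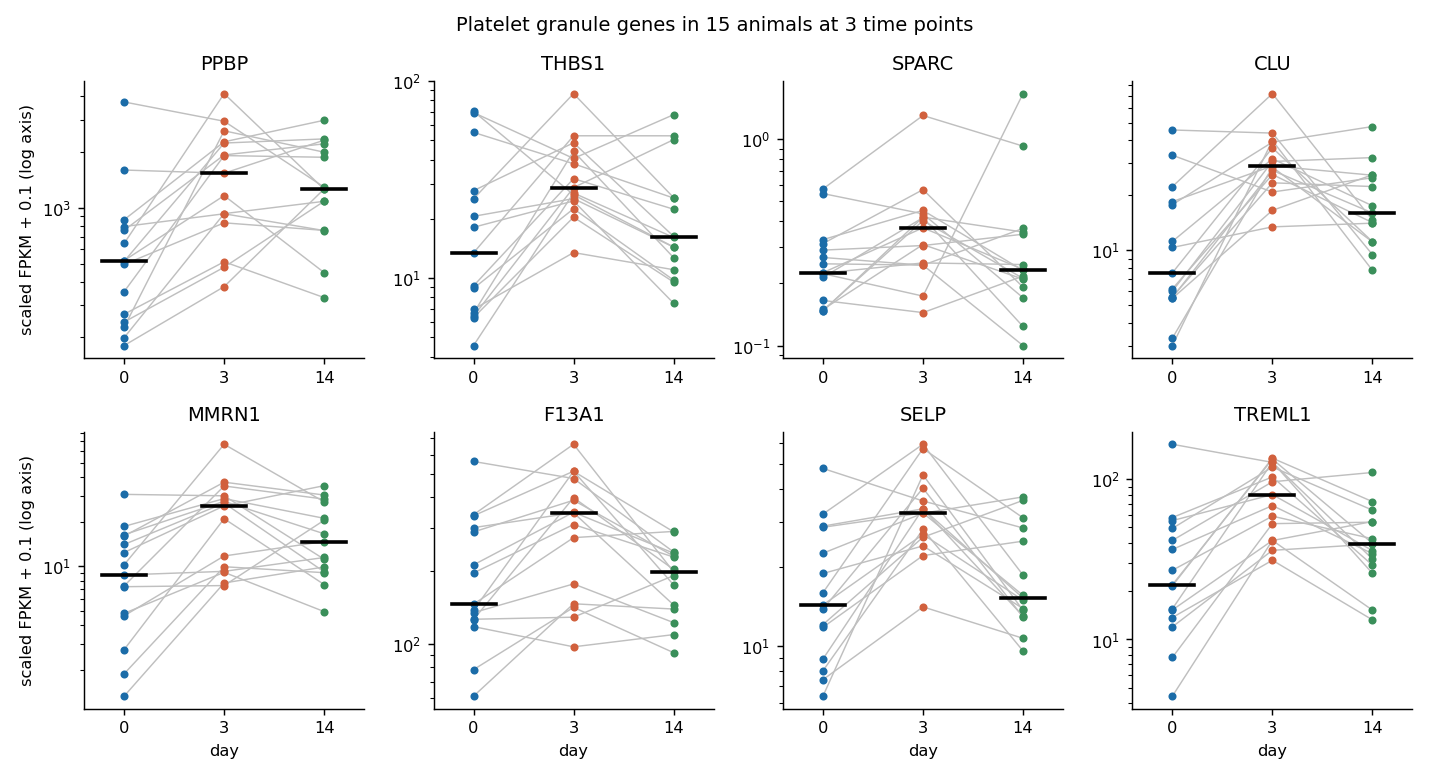
Scaled FPKM plus 0.1 (log axis) of each granule gene against day, 1 panel per gene. Points are animals, grey lines join the 3 samples of an animal, and black bars are medians of 15; the day 3 median lies above the day 0 median in every panel, all groups overlap, and the SPARC medians lie 1 or more orders of magnitude below those of the other genes.

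On day 3 after removal from the troop, the granule genes were higher than in the field. Of the 8 genes, 6 rose and 0 fell between these days (limma, adjusted p under 0.05 by Benjamini-Hochberg over 18753 genes), where 12.4% of all tested genes were called in either direction and 6.12% upward. The median log2 fold change of the 8 genes was 1.19, and that of all tested genes was 0.01. Fold changes are on the scale log2(scaled FPKM + 0.1), with their standard errors.

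The chemokine PPBP rose from a median of 514 scaled FPKM on day 0 to 1539 on day 3, where the lowest library had 375 and the highest 4140.5. The ranges overlapped, and animal 13 had the highest day 0 level of all. Its log2 fold change was 1.36 ± 0.39 (adjusted p = 0.0154 from limma), and PPBP was higher on day 3 in 13 of 15 animals. Without animals 7, 11 and 15 the change was 1.35 and was no longer called (adjusted p = 0.0571). That fit left the pairing by animal out. With all 15 animals entered as a replicate block PPBP was called (limma, adjusted p = 0.00152).

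Among the adhesive and matrix glycoproteins, CLU, MMRN1 and THBS1 were called and SPARC was not. CLU, or clusterin, an extracellular chaperone and inhibitor of complement, lay between 2.92 and 45.5 scaled FPKM on day 0 (median 7.44) and between 13.4 and 72.0 on day 3 (median 28.9). The ranges overlapped, and animals 13 and 14, which had the highest day 0 levels, were the ones in which CLU was not higher on day 3. The log2 fold change of CLU was 1.61 ± 0.30 (adjusted p = 8.16e-04 from limma). MMRN1, multimerin 1, which holds factor V in the granule, ranged from 1.23 to 30.5 scaled FPKM on day 0 (median 8.66) and from 7.32 to 66.6 on day 3 (median 25.5). It was higher in 14 of 15 animals, with a log2 fold change of 1.31 ± 0.37 (adjusted p = 0.0149). The call for MMRN1 was lost with RNA integrity number (RIN) entered as a covariate (adjusted p = 0.051) and without animals 7, 11 and 15 (adjusted p = 0.0558), at changes of 1.15 and 1.30. Both of these fits left the pairing by animal out. With animals entered as a replicate block MMRN1 was called (limma, adjusted p = 5.78e-04), and with block and RIN together as well (1.225, adjusted p = 0.00327).

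THBS1, thrombospondin 1, a glycoprotein that bridges platelets to matrix and activates latent TGF-β, ranged from 4.45 to 70.2 scaled FPKM on day 0 (median 13.3) and from 13.4 to 86.3 on day 3 (median 28.7). THBS1 was higher on day 3 in most animals and lower in 3 of 15, with the greatest fall in animal 14. Its log2 fold change was 1.06 ± 0.36 (adjusted p = 0.0431 from limma). This call was the weakest: it was lost on leaving out any of 11 animals (all except 4, 7, 14 and 15), with an adjusted p of up to 0.1 without animal 9, and also with limma voom (0.0508), with only the 2 time points fitted (0.0571) and with no filter on low values (0.0753). The change was 0.94 to 1.23 with 1 animal left out and 1.05 or 1.06 in the other 3 settings. The fit with animals as a replicate block called THBS1 (adjusted p = 0.0089). SPARC had median levels of 0.125 scaled FPKM on day 0 and 0.272 on day 3, with a highest value of 1.20, and its change of 0.49 ± 0.29 (adjusted p = 0.286) did not pass the test.

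Transcripts of both granule membrane proteins were higher on day 3. SELP, or P-selectin, which on activated platelets binds leukocytes through PSGL-1, ranged from 6.29 to 48.0 scaled FPKM on day 0 (median 14.2) and from 14.0 to 59.5 on day 3 (median 32.3). It was higher in 14 of 15 animals, all but animal 14, with a log2 fold change of 1.04 ± 0.24 (adjusted p = 0.00442 from limma). TREML1 lay between 31.1 and 135 scaled FPKM on day 3, with a median of 80.1 against 21.8 on day 0. It was higher in 14 of 15 animals, all but animal 13, and changed by 1.60 ± 0.35 on the log2 scale (adjusted p = 0.0022). SELP and TREML1 kept these calls under every setting tried and with any 1 animal left out, as did CLU.

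F13A1 had the second highest levels. It ranged from 97.2 to 661 scaled FPKM on day 3 (median 346) against 60.9 to 562 on day 0 (median 146), and it was higher in 13 of 15 animals. The log2 fold change of 0.67 ± 0.27 did not pass the test without pairing (adjusted p = 0.0962 from limma) and did once animals were entered as a replicate block (adjusted p = 0.0069), so that 7 of 8 genes were then called, where 10.3% of all tested genes were called upward.

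**Figure D2:**
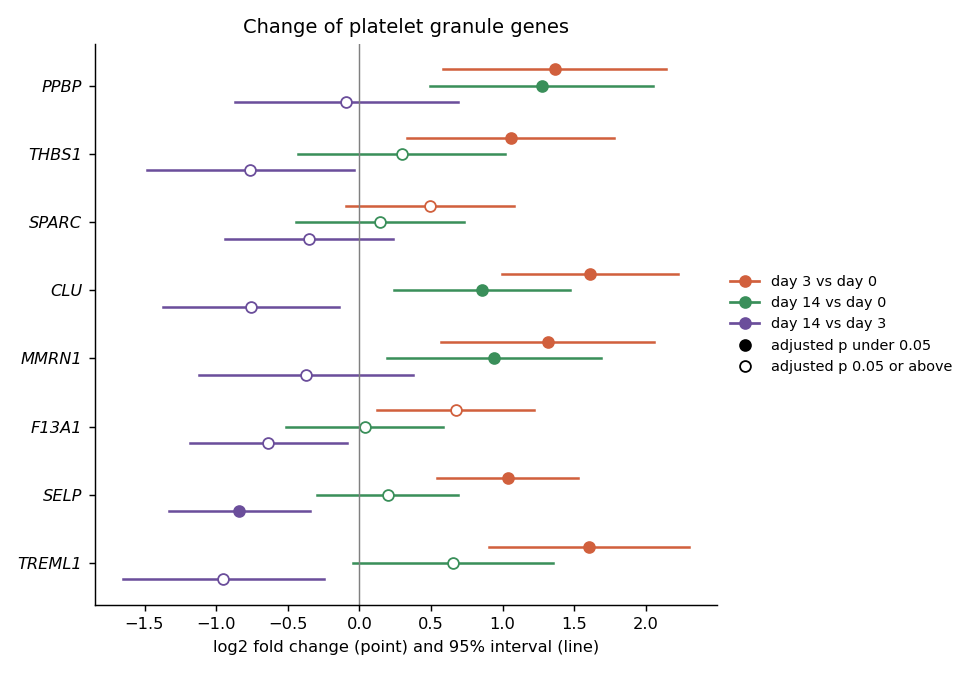
Log2 fold change (x axis) of each granule gene (y axis) in the 3 comparisons; lines are 95% intervals from limma without pairing, and filled points have an adjusted p under 0.05. On day 3 vs. day 0, 6 of 8 points are filled and all lie above 0; on day 14 vs. day 3 all lie below 0 and only SELP is filled.

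On day 14, PPBP, CLU and MMRN1 were called higher than on day 0 and the other 5 genes were not called. Of all tested genes 36% were called and 18.8% upward, so the share of granule genes called was near the background. The median log2 fold change of the 8 genes was 0.47, against −0.02 over all tested genes.

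PPBP on day 14 ranged from 328 to 2974 scaled FPKM with a median of 1266, against 514 on day 0. It was higher than on day 0 in 12 of 15 animals, and the log2 fold change was 1.27 ± 0.39 (adjusted p = 0.00812 from limma). Animal 13 again went the other way, with a fall of PPBP from 3733 to 1294 scaled FPKM. CLU ranged from 7.68 to 47.5 scaled FPKM (median 15.9) and changed by 0.85 ± 0.30 (adjusted p = 0.0244, higher in 12 of 15 animals). MMRN1 ranged from 4.85 to 34.96 scaled FPKM (median 14.6) and changed by 0.94 ± 0.37 (adjusted p = 0.0412, higher in 13 of 15).

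The remaining genes were nearer to their day 0 levels. TREML1, with 13.2 to 110 scaled FPKM on day 14 (median 39.3), changed by 0.65 ± 0.35 (adjusted p = 0.138 from limma), and it was called in the fit with the replicate block (adjusted p = 0.0443), where 23.2% of all tested genes were called upward, but not with replicate block and RIN together (0.67, adjusted p = 0.171). THBS1 ranged from 7.36 to 67.5 scaled FPKM (median 15.99), SELP from 9.44 to 37.3 (median 15.1) and F13A1 from 92.0 to 290 (median 198). Their log2 fold changes vs. day 0 were 0.30 ± 0.36, 0.20 ± 0.24 and 0.04 ± 0.27, with adjusted p = 0.553, 0.558 and 0.93 from limma. SPARC had a day 14 median of 0.131 scaled FPKM, with 0 in animal 15 and 1.56 in animal 6, and a change of 0.15 ± 0.29 (adjusted p = 0.729). For F13A1 the 95% interval of the log2 fold change ran from −0.51 to 0.58, so that a change of up to about that size in either direction was not resolved.

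The day 14 calls depended on processing more than those of day 3. RNA quality itself moved with the day, since the mean RIN was lowest in the day 0 samples and highest in those of day 14. With RIN as a covariate limma called 0 of 8 genes on day 14 vs. day 0 (2 of 8 at an unadjusted p under 0.05, and 20.1% of all tested genes after adjustment). The changes of these 2, PPBP and CLU, were then 1.09 and 0.86 (adjusted p = 0.0853 and 0.0862), and with replicate block and RIN together both were called (1.26 and 1.06, adjusted p = 0.0168 and 0.033). MMRN1 was called in neither fit (0.61 with RIN, adjusted p = 0.348, and 0.76 with block and RIN, adjusted p = 0.0896). Its call was also lost with 1 added before the logarithm (0.82, adjusted p = 0.05 after rounding) and with no filter on low values (0.94, adjusted p = 0.0709). Without TMM, where the median change of all genes was −0.36 and 1465 genes were called upward and 7799 downward (3520 and 3238 with TMM), only PPBP was called. CLU and MMRN1 then changed by 0.43 and 0.52 (adjusted p = 0.196 and 0.197). The call of CLU was lost without animal 3, 6 or 8, and that of MMRN1 without any of 9 animals (1, 3, 5, 6, 7, 8, 9, 11 and 12), at changes of 0.74 to 1.08 for CLU and 0.80 to 1.11 for MMRN1 with 1 animal left out, while without animals 7, 11 and 15 together only PPBP was called.

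Between day 3 and day 14 all 8 genes had a negative fold change, with a median of −0.70 (−0.02 over all tested genes), but 1 was called, where 13.5% of all tested genes were called and 5.04% downward. This gene was SELP, which fell by 0.84 on the log2 scale (standard error 0.24, adjusted p = 0.0214 from limma), from a median of 32.3 to 15.1 scaled FPKM, and was lower in 12 of 15 animals. This call was lost with RIN as a covariate (−0.77, adjusted p = 0.0594) and kept with replicate block and RIN together (−0.63, adjusted p = 0.0344). Once animals formed a replicate block, 5 genes were called lower, where 9.85% of all tested genes were called downward. In that fit SELP (adjusted p = 0.00301) was joined by F13A1 (−0.63, adjusted p = 0.00984, lower in 12 animals) and TREML1 (−0.95, adjusted p = 0.0107, lower in 11). CLU (−0.76, adjusted p = 0.0456, lower in 10) and THBS1 (−0.76, adjusted p = 0.0493, lower in 13) passed narrowly.

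PPBP stood at the other end. Its levels of 375 to 4140.5 scaled FPKM on day 3 and 328 to 2974 on day 14 differed by −0.09 ± 0.39 on the log2 scale (adjusted p = 0.899 from limma), and it was lower on day 14 in 8 of 15 animals and higher in 7. The 95% interval of this difference, −0.87 to 0.69, was wide, and the difference between the changes of PPBP and SELP was not tested. MMRN1 (−0.37 ± 0.37) and SPARC (−0.35 ± 0.29) were not called with or without pairing. Most animals had their highest level on day 3 for THBS1, F13A1 and SELP (11 of 15 each), TREML1 (10) and CLU, MMRN1 and SPARC (9 each). For PPBP 7 animals had it on day 3 and 7 on day 14.

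To ask whether granule genes changed beyond other platelet transcripts, each gene was compared with the mean log2 level of 8 receptor and structural genes of platelets in the same library (ITGA2B, ITGB3, GP1BA, GP1BB, GP5, GP6, GP9 and TUBB1). The mean of this reference over the 15 animals, with its SD, was 2.37 ± 1.06 in the day 0 libraries, 3.81 ± 0.52 in those of day 3 and 2.90 ± 0.62 in those of day 14. On this scale nearly every gene that is not a platelet gene falls on day 3: 96.4% of all tested genes were called lower on day 3. Among the granule genes 6 of 8 were not called, and 2 were called lower than the reference. F13A1 rose less than the receptor genes, with a difference of −0.77 ± 0.30 (adjusted p = 0.0122 from limma), and SPARC had a difference of −0.94 ± 0.36 (adjusted p = 0.0107). When 1 was added to the levels in place of 0.1, F13A1 was no longer called (−0.56, adjusted p = 0.0517), and when 0.01 was added, SPARC was not (−0.75, adjusted p = 0.136). SPARC levels were about as small as the constant added, which damps its own change. Its difference, −1.09 to −0.75 over the settings tried, therefore cannot be separated from the rise of the reference. The differences of CLU (0.17), TREML1 (0.16), PPBP (−0.07) and MMRN1 (−0.13) were near 0, and those of THBS1 and SELP were −0.38 and −0.40, with 95% intervals from −0.97 to 0.21 and from −0.91 to 0.11. Changes of that size relative to the receptor genes were therefore not resolved.

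For day 14 vs. day 0, limma without pairing called a difference from the receptor genes in 0 of 8 granule genes and in 24.7% of all tested genes, and 1 of the 8 had an unadjusted p under 0.05. This was PPBP, at 0.75 ± 0.36 (adjusted p = 0.107), which passed with the replicate block (adjusted p = 0.0368). From day 3 to day 14, where 75.8% of all tested genes rose relative to the receptor genes, PPBP gained 0.82 ± 0.36 on them (adjusted p = 0.0366), and with the block MMRN1 did too (0.54, adjusted p = 0.0359). The PPBP call was lost on leaving out any of 7 animals (1, 2, 3, 5, 8, 9 or 12; adjusted p up to 0.064) and with RIN as a covariate (0.74, adjusted p = 0.0701). When 1 was added to the levels in place of 0.1, PPBP was no longer called (0.70, adjusted p = 0.0514) and SPARC was (0.73, adjusted p = 0.00648). Most SPARC levels lay far below that constant, so its call cannot be separated from the fall of the reference. The median of all tested genes on this scale was 0.89, so the gain of PPBP was not above that of the typical gene. The other 6 genes differed from the receptor genes by −0.03 (TREML1) to 0.57 (SPARC) and were not called in either fit.

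**Figure D3:**
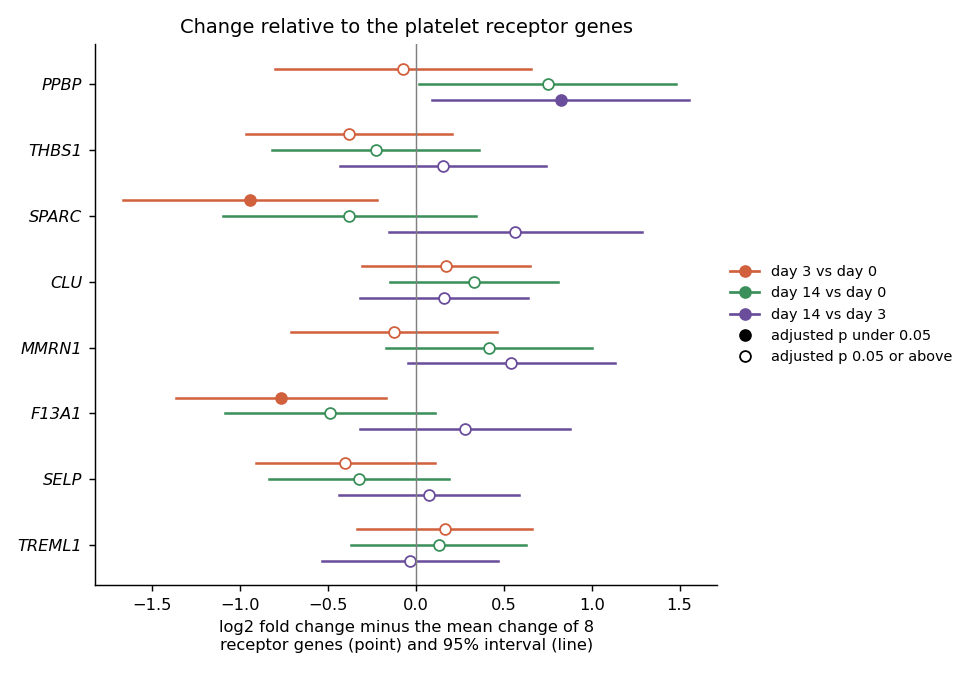
Log2 fold change of each granule gene minus the mean change of 8 platelet receptor and structural genes (x axis) in the 3 comparisons; lines are 95% intervals from limma without pairing, and filled points have an adjusted p under 0.05. SPARC and F13A1 lie below 0 on day 3 vs. day 0, PPBP lies above 0 on day 14 vs. day 3, and the remaining points are open.

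The changes differed between animals. Each animal gave a single library per day, so a difference between animals and the noise of single libraries cannot be told apart. On day 3, 12 of 15 animals had at least 7 of the 8 genes above their own day 0 level, and 6 had all 8. The median change over the 8 genes was largest in animals 11 (2.76 on the log2 scale) and 9 (2.63). It was near 0 in animals 13 (−0.04) and 14 (0.01), whose summed day 0 levels, 4586 and 2106 scaled FPKM, were the highest of all animals. A change from day 0 contains the day 0 level, so a high day 0 level and a small change are not independent. On day 14, 8 animals had at least 7 genes above day 0, and animal 13 had all 8 below it. From day 3 to day 14 the median change over the genes was above 0 in animals 3, 6, 7 and 8 (0.05 to 0.36) and below 0 in the other 11, with the lowest values in animal 11 (−1.65) and animal 4 (−1.61).

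As a description, over libraries that share animals, days and depth, Pearson's r between log2 levels of 2 genes ranged up to 0.85 (MMRN1 and TREML1) and 0.84 (CLU and TREML1). Among the 7 genes other than SPARC it was lowest for THBS1 with F13A1 (0.32) and with MMRN1 (0.38). SPARC had r of 0.09 to 0.37 with the others. CLU and TREML1 were closest to the mean of the platelet receptor genes (r of 0.91 each), followed by SELP (0.81), MMRN1 (0.75), THBS1 (0.73), PPBP (0.67) and F13A1 (0.67).

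**Figure D4:**
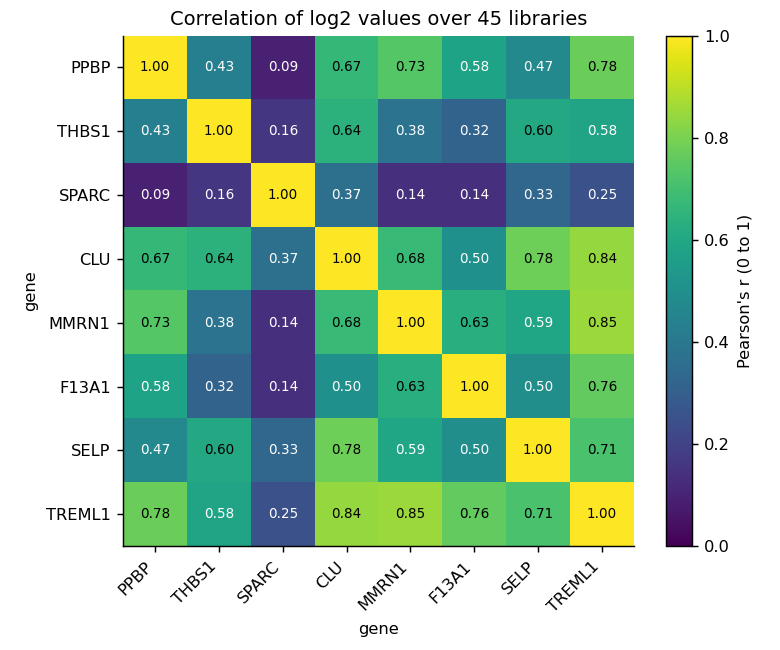
Pearson's r between the log2 levels of each pair of granule genes over 45 libraries (rows and columns are genes, colour and printed value are r). The SPARC row and column are at or below 0.37, and the highest value between different genes is 0.85.

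The genes most like each granule gene differed between them. The mean profile of the 8 was most like F2R (r of 0.96), the thrombin receptor PAR1, GNAZ (0.95), CTTN (0.95), TUBB1 (0.94), GP1BB (0.94) and GP9 (0.93), and after them like ITGB5, RGS6, ESAM and DOK6 (0.93 each). TREML1 was closest to LY6G6F (0.97), a platelet membrane protein of the immunoglobulin family, then to GP1BB and GNAZ (0.94 each). LY6G6F was also closest to F13A1 (0.82), before DUSP3 (0.79) and ANAPC5 (0.78). CLU was nearest to ITGB5 (0.90), ITGA2B and TUBB1 (0.89 each), and SELP to ESAM (0.84), PTGS1 (0.83), the cyclooxygenase that makes thromboxane in platelets, and ITGA2B (0.82). MMRN1 was nearest to TREML1, CMTM5 (0.85) and RAB27B (0.83), a GTPase of granule secretion. PPBP was nearest to ANGPT1 (0.90), another α-granule protein, LOC103226542 (0.90) and ENKUR (0.88). THBS1 was nearest to STON2 (0.88) and LOC103229450 (0.84). For SPARC the nearest genes were of another kind, COL4A2 (0.69), COL4A1 (0.63) and HSPG2 (0.63), which encode basement membrane collagen IV chains and perlecan.

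Wider lists of granule genes were examined beside these 8. Of 23 tested genes for other α-granule cargo, 4 rose and 0 fell on day 3 vs. day 0 (median log2 fold change 0.18), and the background was the 12.4% given above. Among them were VWF, the carrier of factor VIII (1.83 ± 0.38, adjusted p = 0.00163 from limma), ANGPT1, a ligand of the receptor TIE2 (1.06 ± 0.26, adjusted p = 0.00561), and PF4V1. ANGPT1 was higher in 15 of 15 animals. PF4V1, a chemokine gene closely related to PF4 and named here after its values were seen, had medians of 1.60, 6.05 and 4.23 scaled FPKM on days 0, 3 and 14. It changed by 1.07 ± 0.34 on day 3 (adjusted p = 0.0293) and 1.103 ± 0.34 on day 14 vs. day 0 (adjusted p = 0.00879). Reads shared between such related genes may be divided in ways the counting does not show.

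The cargo list was split on day 14 vs. day 0, with 4 genes up and 5 down. Without animals 7, 11 and 15 these counts were 4 and 0, with RIN as a covariate 1 and 2, and with replicate block and RIN together 4 and 3. CCL5, a chemokine that T cells make as well, had the lowest adjusted p (1.34 ± 0.30, adjusted p = 4.01e-04 from limma, higher in 14 of 15 animals), and ANGPT1 was called too (0.93 ± 0.26, adjusted p = 0.00407). The list's share called was near the 36% of all tested genes. Between day 3 and day 14, 3 cargo genes fell and 0 rose, a share near the 13.5% of all tested genes. VWF was among them: it went from 2.49 ± 2.15 (SD, n = 15) to 0.695 ± 0.365 scaled FPKM (log2 fold change −1.45 ± 0.38, adjusted p = 0.0123) and was lower in 14 animals, all on low levels.

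Of 21 genes for granule biogenesis, 5 rose and 2 fell on day 3 vs. day 0 (median 0.09), where 12.4% of all tested genes were called. GFI1B, a transcription factor of megakaryocytes and erythroid cells, rose by 1.23 ± 0.25 (adjusted p = 0.0012 from limma) and SLC18A2, which loads serotonin into dense granules, by 0.96 ± 0.20 (adjusted p = 0.00198). Each was higher in 15 of 15 animals. LYST, the lysosomal trafficking regulator, fell by 0.79 on the log2 scale (standard error 0.16, adjusted p = 0.00141), from 115 ± 59.9 to 61.3 ± 12.3 scaled FPKM. By day 14 the counts vs. day 0 were 5 up and 3 down, a share near the 36% of all tested genes, and GFI1B (1.27) and LYST (−1.06) were again called.

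Of 24 genes for the release machinery, 3 rose and 2 fell on day 3 vs. day 0 (median 0.05), and 7 rose and 3 fell on day 14. The shares of all tested genes called were 12.4% and 36%. With RIN as a covariate the day 3 counts of this list were 2 and 0, and with replicate block and RIN together 5 and 1. NAPA, which encodes the SNARE-recycling protein α-SNAP, rose by 1.20 ± 0.28 on day 3 (adjusted p = 0.00353 from limma) and by 1.92 ± 0.28 on day 14 (adjusted p = 1.72e-06). SYTL4, a granule-docking effector of RAB27, rose by 1.02 ± 0.26 on day 3 (adjusted p = 0.00806) and STX7, an endosomal syntaxin, fell by 0.41 (adjusted p = 0.017).

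Under the replicate block the counts of these lists moved by more than 1.5 times in some comparisons. Of the release machinery genes 6 rose and 2 fell on day 3, and 9 rose and 7 fell on day 14, where the block called 19.6% and 44.3% of all tested genes in either direction and 10.3% and 23.2% upward. Between day 3 and day 14, 1 cargo gene rose and 4 fell (none and 3 without pairing), 2 biogenesis genes rose and 3 fell (1 and 0 without), and 6 release genes rose and 2 fell (3 and 2 without). These last counts also moved with scaling: without TMM 0 cargo genes rose and 10 fell, 0 biogenesis genes rose and 13 fell, and 1 release gene rose and 13 fell, where 606 of all 18753 tested genes rose and 6625 fell and the median change was −0.35. With 1 animal left out, 0 to 2 biogenesis genes and 1 to 6 release genes were called.

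Of the platelet receptor and structural genes themselves, 7 of 8 were called higher on day 3, with a median log2 fold change of 1.5. Of all tested genes 12.4% were called in either direction and 6.12% upward. The gene not called was GP5 (0.03 ± 0.18, adjusted p = 0.94 from limma), which is part of the reference mean. ITGA2B, which encodes integrin αIIb, rose by 2.19 ± 0.37 (adjusted p = 3.11e-04 from limma) and its partner ITGB3 by 2.03 ± 0.36 (adjusted p = 5.18e-04). GP6, the collagen receptor, rose by 1.57 ± 0.31 (adjusted p = 0.00109). Of the 8, only TUBB1 was called on day 14 vs. day 0 (0.80 ± 0.29, adjusted p = 0.0284), where 18.8% of all tested genes were called upward. With the replicate block 4 genes were called, where that share was 23.2%. The count without the block was 0 to 4 with 1 animal left out. Without TMM 0 receptor genes rose and 1 fell, where 1465 of all tested genes rose and 7799 fell. Between day 3 and day 14, ITGA2B and ITGB3 were called lower, by −1.37 and −1.55, where 5.04% of all tested genes were called downward. With the block 5 genes were called lower, where that share was 9.85%. Over all alternative settings the count called lay between 2 and 8, and between 2 and 5 with 1 animal left out.

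**Figure D5:**
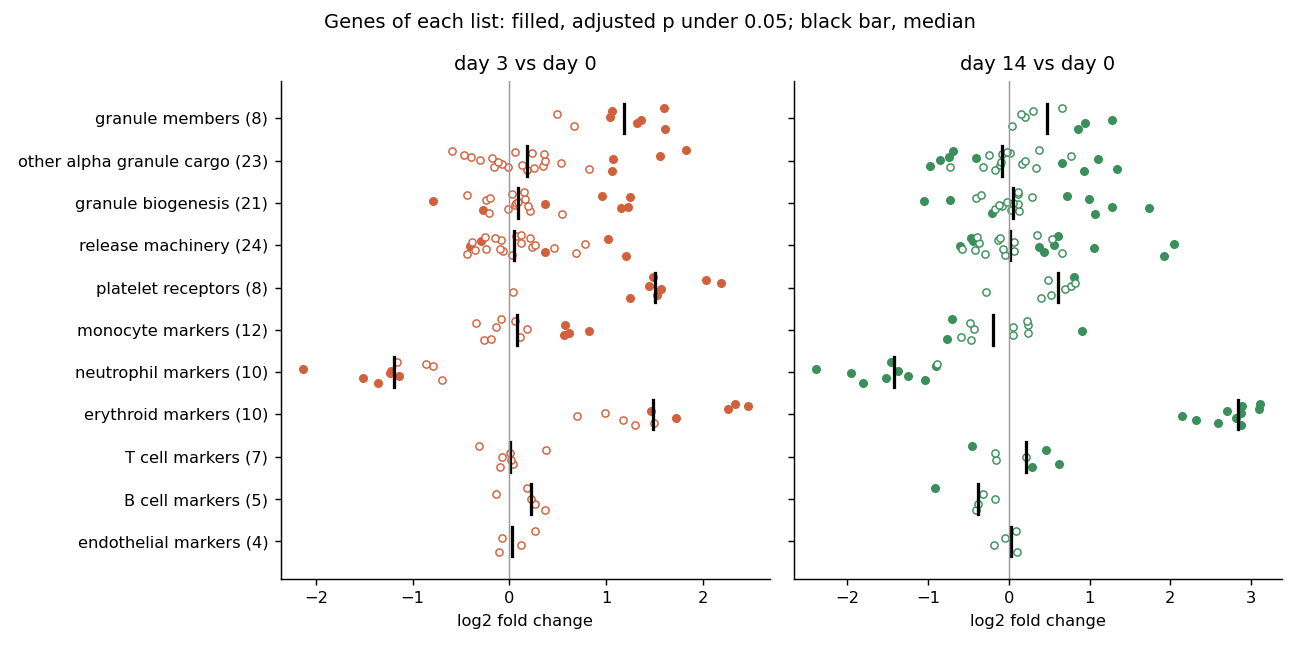
Log2 fold changes vs. day 0 (x axis) on day 3 (left) and day 14 (right) for the granule genes, the wider granule lists, platelet receptors and markers of other blood cells, with the number of tested genes in brackets. Points are genes, filled where the adjusted p was under 0.05, and black bars are medians; the granule genes and receptors lie mostly to the right on day 3, neutrophil markers lie to the left and erythroid markers to the right on both days.

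Markers of other blood cells moved in the same samples. Of 10 tested neutrophil markers 0 rose and 6 fell on day 3 vs. day 0 (median −1.19), and 9 fell on day 14 (median −1.42). The shares of all tested genes called were 12.4% and 36%. Without animals 7, 11 and 15 the neutrophil counts were 1 and 6, and with RIN as a covariate 3 and 3. With replicate block and RIN together they were 5 and 7. PROK2 fell by 2.13 on the log2 scale on day 3 (adjusted p = 8.76e-04 from limma). Of 10 tested erythroid markers 5 rose on day 3 (median 1.48) and 10 on day 14 (median 2.84), where 6.12% and 18.8% of all tested genes were called upward. With the replicate block 8 rose on day 3, where 10.3% of all tested genes were called upward. The summed erythroid level had a median of 4916 scaled FPKM on day 0, 14814 on day 3 and 37634 on day 14, with ranges of 466 to 24609, 3985 to 45333 and 7868 to 66697. The part of these markers in the granule gene results was not tested.

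Monocytes and endothelium are the other known sources of some of the granule transcripts. Of 12 monocyte markers 4 rose and 0 fell on day 3, among them CSF1R (0.61 ± 0.16, adjusted p = 0.0114 from limma), CD68 (0.57 ± 0.18, adjusted p = 0.0281) and CX3CR1 (0.82 ± 0.27, adjusted p = 0.0367). The median log2 fold change of the 12 was 0.08, and 12.4% of all tested genes were called. The day 3 count was 1 with RIN as a covariate, 4 with replicate block and RIN together, 0 without TMM and 1 to 4 with 1 animal left out. On day 14 vs. day 0, 1 monocyte marker rose and 2 fell, and 1 and 4 with the replicate block, where 36% of all tested genes were called without it. With RIN as a covariate these day 14 calls were lost, while the median change of the 12 markers was −0.18 against −0.19 without it. With replicate block and RIN together 1 monocyte marker rose and 1 fell on day 14. The monocyte sum ranged from 839 to 7955 scaled FPKM on day 0, from 891 to 2706 on day 3 and from 953 to 2561 on day 14. Over the 45 libraries F13A1 had an r of 0.44 and THBS1 of 0.43 with the monocyte marker mean. CD14 had a change of −0.19 on day 3 (adjusted p = 0.583) and fell on day 14 (−0.77, adjusted p = 0.0018). Of 9 endothelial markers 4 passed the filter and limma, with or without pairing, called 0 of them in any comparison (0 at an unadjusted p under 0.05 without pairing), with sums of 0.495 to 8.92 scaled FPKM on day 0, 0.638 to 8.18 on day 3 and 0.571 to 7.98 on day 14. CDH5, ROBO4, EMCN, MMRN2 and SOX17 were too low to be tested. On day 3 limma called 0 of 7 T cell markers (2 at an unadjusted p under 0.05) and 0 of 5 B cell markers (0 unadjusted), and with the replicate block 1 T cell marker rose and 1 fell. By day 14, 3 T cell markers had risen and 1 had fallen vs. day 0, and 1 B cell marker had fallen (36% of all tested genes were called), and these calls were lost with RIN as a covariate. The T cell median was then 0.12 against 0.22 without RIN, and the B cell median −0.42 against −0.39. With replicate block and RIN together 1 T cell marker rose and 1 fell, and 0 B cell markers were called.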

How the data were processed

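The deposited files give FPKM per gene symbol and library. Per the labels and the study's methods, the authors aligned 120 bp paired-end reads to Chlorocebus_sabeus 1.1 with STAR and counted fragments with HTSeq (bcl2fastq 2.17 for base calls), and each value is a fragment count over gene length and library total, with no scaling between libraries. Every gene above 0 (33635) came out as whole fragments within 0.005, from which library totals were taken. Genes above 0.5 CPM (fragments scaled to the library total) in at least 3 libraries were tested (18753). FPKM were divided by TMM factors, 0.1 was added, and log2 values were fitted with limma 3.58.1 (R 4.3.3; eBayes with trend), 1 mean per time point, p-values adjusted by Benjamini-Hochberg over all tested genes and 95% intervals on 42 degrees of freedom. No count test replaced it. An alternative was limma voom on the recovered fragments, which called 5, 3 and 1 of the 8 genes on day 3 vs. day 0, day 14 vs. day 0 and day 14 vs. day 3. The share of all tested genes called is not given for voom, for fits with animals left out or with 2 time points, or for replicate block and RIN together. Counts under those settings are therefore not set against a background.

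The replicate number is the animal, so samples pair by animal: deviations from time point means had a mean r of 0.328 within animals (45 pairs, lowest −0.0432) and −0.0231 between animals (630 pairs). The blocked value is given for the 8 genes where it changes a call and for the lists where it moves a printed count by more than 1.5 times. On simulated data for day 3 vs. day 0 (18753 genes), 99% of 4-fold and 41% of 2-fold changed genes were recovered, out of 100 changed genes each. The simulated counts were independent, with the same dispersion for every gene, no animal effect and no TMM step. The changed genes were not drawn from the lowest ones. These rates therefore do not carry over to the paired libraries here, or to a gene as low as SPARC. RNA integrity numbers came from the study's supplement.

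The genes and lists were chosen with earlier results of these data known. Named beyond the 8 genes are, per list, up to 3 genes with the lowest adjusted p on day 3 and 2 on day 14 vs. day 0 (examples are given, and some genes are not reported here), the 3 genes most like each granule gene and the 10 most like their mean. Of the 9 symbols 8 matched RefSeq's table, of another assembly (mChlSab1.0), so no coordinates are given. No row was found for PF4, ECM1, HBB, HBA1 and TRAT1; VEGFC and CXCL5 were too low to test.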

Additional observations from a re-analysis of the deposited data

Results flagged for a closer look

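The change of SELP from day 0 differed between day 3 and day 14: it was 1.04 on day 3 and 0.20 on day 14, and the difference of −0.84 (standard error 0.24) passed the test of day 14 vs. day 3 (limma, adjusted p = 0.0214, lower in 12 of 15 animals). Relative to the platelet receptor genes the change of PPBP also differed, from −0.07 on day 3 to 0.75 on day 14, a difference of 0.82 (standard error 0.36, limma, adjusted p = 0.0366), where the median of all tested genes was 0.89 and 75.8% were called upward. Both calls were lost once RNA integrity entered the fit as a covariate (−0.77 and 0.74, adjusted p = 0.0594 and 0.0701), and that of SELP was kept with replicate block and RNA integrity together (−0.63, adjusted p = 0.0344).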

How the results depend on the processing

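The count of granule genes called on day 3 vs. day 0 was 6 and lay between 4 and 7 under all alternatives (5 to 6 with 1 animal left out), the 4 being without animals 7, 11 and 15, an alternative chosen after seeing the data. On day 14 vs. day 0 it was 3. It was 1 without TMM, 0 with RIN as a covariate, 1 without animals 7, 11 and 15, and 1 to 4 with 1 animal left out. On day 14 vs. day 3 it was 1. It was 5 without TMM (where 6625 of 18753 tested genes fell), 0 with RIN, 3 with only the 2 time points compared, and 1 to 2 with 1 animal left out. The replicate block gave 7 and 4 in the comparisons with day 0 and 5 on day 14 vs. day 3, and the block with RIN gave 7, 2 and 3 in the same order.

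Relative to the platelet receptor genes, 2 genes were called on day 3 vs. day 0, and 1 with 1 or 0.01 in the logarithm. Under the replicate block 1 gene in place of 0 was called on day 14 vs. day 0, and 2 in place of 1 on day 14 vs. day 3. Without the block 24.7% of all tested genes were called in the first of these comparisons and 75.8% upward in the second, and the blocked shares are not given. The count on day 14 vs. day 3 was 0 with RIN, stayed at 1 with 1 in the logarithm but was then SPARC in place of PPBP, and was 0 to 2 with 1 animal left out.

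Changes of sign were seen in values that were not called. Without TMM they were, on day 14 vs. day 0, THBS1 (−0.127), SPARC (−0.0429), F13A1 (−0.388) and SELP (−0.224). With RIN they were F13A1 (−0.218) and, relative to receptors, THBS1 (0.0603) and TREML1 (−0.0258), and with block and RIN they were SPARC (−0.0865) and F13A1 (−0.00689). With 1 in the logarithm they were, relative to receptors, PPBP on day 3 (0.132) and SELP on day 14 vs. day 3 (−0.0131). Without animals 7, 11 and 15 they were PPBP on day 14 vs. day 3 (0.0224) and, relative to receptors, THBS1 on day 14 vs. day 0 (0.00376) and TREML1 on day 14 vs. day 3 (0.0367). With 1 animal left out, F13A1 lay between −0.0453 and 0.128 and SPARC between −0.0504 and 0.276 on day 14 vs. day 0, and PPBP between −0.223 and 0.0253 on day 14 vs. day 3. Relative to receptors, PPBP then lay between −0.123 and 0.00946 on day 3 vs. day 0, and TREML1 between −0.0869 and 0.0133 on day 14 vs. day 3. The causes were not tested. Of 408 gene values under the settings other than leaving out 1 animal, 355 kept direction and side of the threshold, 21 lost the call and 18 gained it, and of 720 values with 1 animal left out 674 kept both. SPARC, at a median of 8 fragments, is limited by depth.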

Other observations

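The spread between animals was wider in the field than later for most granule genes. The SD of log2 levels over the 15 animals was smaller on day 3 than on day 0 for 7 of the 8 granule genes, and smaller on day 14 for 7 of 8. For CLU it was 1.18 on day 0, 0.587 on day 3 and 0.714 on day 14, for THBS1 1.33, 0.654 and 0.965, and for TREML1 1.31, 0.754 and 0.799. SPARC was the exception on both days (0.609, 0.755 and 1.03), on levels near the limit of counting. The narrowing from day 0 to day 3 was small for F13A1 (0.871 and 0.855) and PPBP (1.20 and 1.04). The mean of the platelet receptor genes narrowed too (SD of 1.06, 0.522 and 0.62), so the narrowing was not particular to the granule genes. The share over all tested genes was not computed, and no test of these spreads was made.

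SPARC also had single libraries far above the rest. Animal 4 was above 0.4 scaled FPKM on each day (0.474, 1.20 and 0.825), and animal 6 went from 0.123 on day 0 and 0.0736 on day 3 to 1.56 on day 14.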
